A study of Mus musculus with 16 samples.

Results

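The 10 genes described here are the Notch receptor genes Notch1, Notch2, Notch3 and Notch4, the ligand genes Jag1, Jag2 and Dll1, the target genes Hes1 and Hey1, and Dtx4, a member of the Deltex family of ubiquitin ligases that act on Notch receptors. They were matched by gene symbol, and all 10 were found among the 55487 gene identifiers of the series. The series holds RNA sequencing of 16 samples of mammary organoids of the mouse, clusters of gland cells kept in culture. There were 3 WT samples, 4 with a PIK3CA mutation, 4 with a HER2 mutation and 5 with both mutations (called double mutant here). The alleles named in the series title are PIK3CAH1047R, in a catalytic subunit of phosphoinositide 3-kinase, and HER2V777L, in a receptor tyrosine kinase. All groups were cultured with epidermal growth factor and with medium conditioned with Rspo1 and Noggin. The labels give normal breast as the origin of WT samples and tumor of the breast as that of the others, so genotype and tissue source cannot be told apart in any comparison with WT. The labels give no strain, age, promoter or Cre driver, and do not say whether samples of a genotype came from separate mice, so p-values measure the spread between these samples, which may be technical.

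Notch receptors are membrane proteins that are cut when they bind a Jagged or Delta-like ligand on a neighbouring cell. The released intracellular part enters the nucleus, joins the DNA-binding protein RBPJ and a Mastermind coactivator, and switches on targets such as Hes and Hey genes, which encode repressors of transcription. In the mammary gland the pathway is known for its part in the choice between luminal and basal cell fates, and Notch3 is also known as a gene of pericytes, the cells that wrap small vessels.

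Total counts ranged from 45545182 to 64168308 per sample, and all 10 genes passed the filter on low counts. Levels are given in CPM, read counts relative to the library size scaled with TMM factors, a unit in which 3 counts correspond to 0.0468 to 0.0659 CPM. Gene counts do not show the alleles, so the genotype labels were not checked against sequence. The 10 luminal markers (Krt8, Krt18, Epcam and others) and the 10 basal and myoepithelial markers (Krt5, Krt14, Trp63 and others) were above 0 counts in every sample. Luminal markers summed to 2170 to 2510 CPM in WT, 3240 to 3830 in PIK3CA mutant, 2120 to 2920 in HER2 mutant and 2800 to 4800 CPM in double mutant organoids. Members differed in the same order of genotypes: Krt18 was at 530, 991, 575 and 876 CPM on average. Esr1 was at 35.2, 18.4, 22.7 and 18.1 CPM, and Foxa1 at 36.8, 45, 10.8 and 55.7 CPM. Of these 10, 1 was lower than WT and 0 higher in PIK3CA mutant organoids (edgeR, adjusted p under 0.05). Over all genes tested, 4.52% passed. Basal and myoepithelial markers summed to medians of 902, 1220, 331 and 955 CPM in the same order of genotypes. Summed immune, fibroblast, pericyte and endothelial markers had their highest medians in WT. The 10 immune markers summed to 1070 to 3820 CPM in WT, 610 to 773 in PIK3CA mutant, 271 to 452 in HER2 mutant and 239 to 425 CPM in double mutant organoids. Among them Cd14 had the highest mean in each mutant genotype. It was at 540, 650, 278 and 328 CPM on average in the same order of genotypes. Lyz2 was at 1390, 2.84, 50.2 and 0.177 CPM. Fibroblast markers summed to 931 to 2970 CPM in WT, 448 to 1270 in PIK3CA mutant, 48.8 to 776 in HER2 mutant and 458 to 1720 CPM in double mutant organoids. Members differed in the same order of genotypes: Postn was at 628, 617, 153 and 708 CPM on average. Fbln1 was at 30.9, 43.8, 7.09 and 43.3 CPM, and Col1a1 at 639, 84.5, 144 and 16 CPM. Endothelial markers summed to 11.3 to 34 CPM in WT and at most 3.89 CPM in any mutant sample. The markers at 0 counts in some samples were Lum and Col3a1 (fibroblast), Des (pericyte), Cdh5, Cldn5, Emcn, Erg, Kdr and Tie1 (endothelial) and Adgre1, C1qa, Itgam and Tyrobp (immune). In these bulk samples, fewer cells of a type and less RNA per cell cannot be told apart.

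Of the 10 genes, 5 differed between some pair of genotypes or in the interaction (Notch1, Notch2, Notch3, Hey1 and Dtx4). Notch3 was highest in PIK3CA mutant organoids, Notch1 and Notch2 were highest in WT, Hey1 was lowest in HER2 mutant organoids, and Dtx4 was raised in each single mutant and near the WT level in the double mutant. Over 7 comparisons, 12 of 70 tests passed an adjusted p of 0.05. They covered the 6 possible pairs of groups and an interaction, defined on the log2 scale as double mutant minus HER2 mutant minus PIK3CA mutant plus WT. The interaction uses WT, so genotype and tissue source cannot be told apart in it either. Of the 12, 7 were against WT, 4 between mutants and 1 was the interaction of Dtx4.

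**Figure D1:**
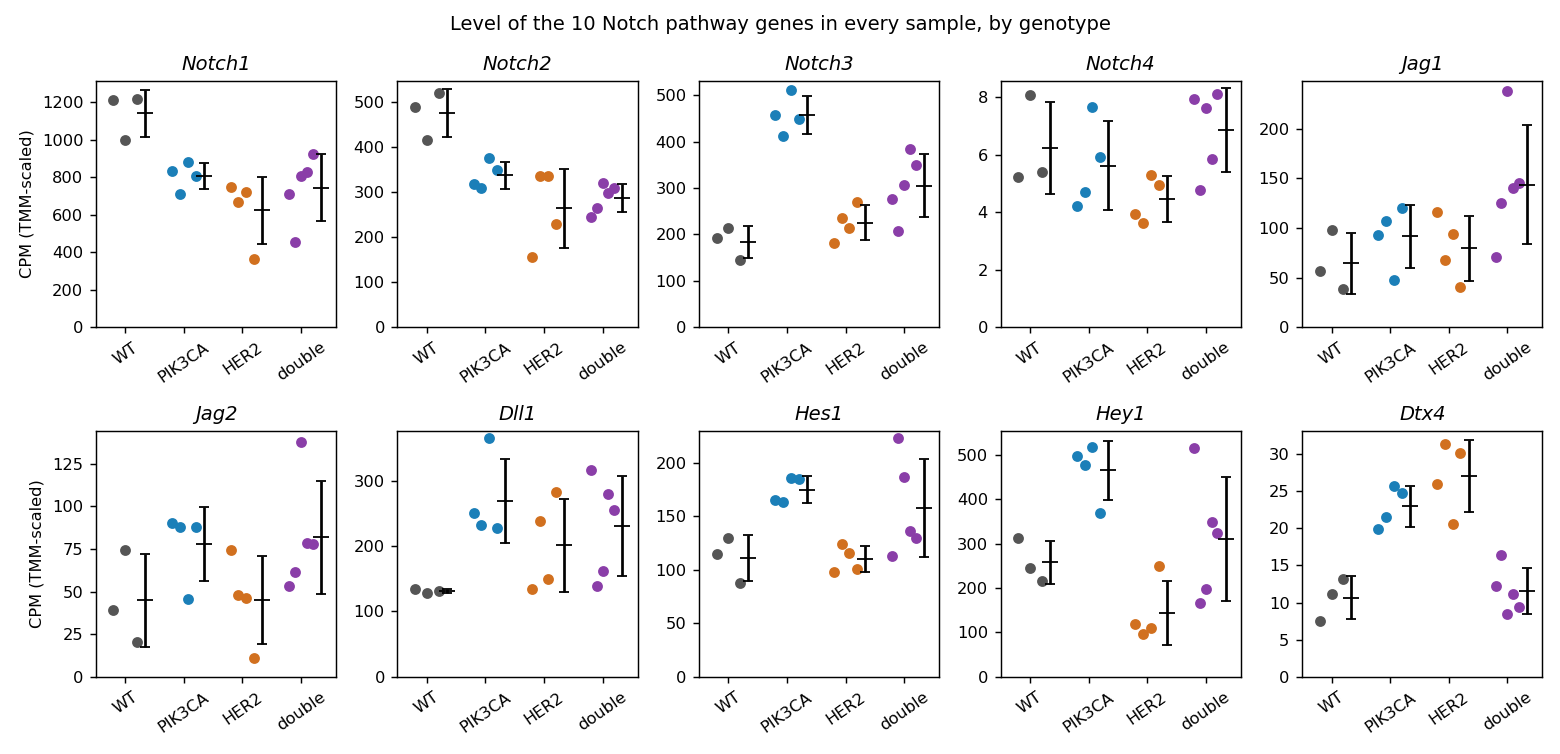
Level of each of the 10 genes (y axis, CPM scaled with TMM factors, each panel from 0) in every sample, by genotype (x axis); points are samples and the bars mean ± SD. The 4 PIK3CA mutant samples lie between 412 and 512 CPM for Notch3, above all other samples, and Dtx4 is at or above 19.9 CPM in the single mutants and at or below 16.4 CPM elsewhere.

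Per kb of annotated exon, the scale on which genes can be set side by side, the level of Notch1 was highest in WT at 80.3 ± 8.83 CPM per kb (SD, n = 3), with Hey1 next at 78.9 ± 15 CPM per kb, and the samples of these neighbours overlapped. Hes1 (54.3 CPM per kb) overlapped with Notch2 (44 CPM per kb), and then came Dll1 (31.1) and Notch3 (22.6 CPM per kb), each apart from its neighbours. Jag1 (11.1) and Jag2 (6.43 CPM per kb) overlapped, and Dtx4 (2.03) and Notch4 (0.772 CPM per kb) were lowest. The order differed in PIK3CA mutant organoids, where Hey1 led at 143 ± 20.4 CPM per kb (SD, n = 4), apart from Hes1 at 85.8, and Dll1 (63.7), Notch1 (56.7) and Notch3 (56.5 CPM per kb) followed with overlapping samples. Hes1 was first in HER2 mutant organoids at 53.9 ± 6.07 CPM per kb (SD, n = 4), and every neighbour in that order from Hes1 down to Dtx4 overlapped with the next. Double mutant organoids had Hey1 first again at 95.3 ± 42.8 CPM per kb (SD, n = 5), with overlap between neighbours down to Jag2 and with Dtx4 and Notch4 lowest.

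The promoters of the 3 receptor genes that passed the test are shown, since Notch1 and Notch2 on the one side and Notch3 on the other differed in opposite directions from WT. The sequences are the 250 bases before the annotated start, from RefSeq on GRCm38.p6, written 5′ to 3′ on the gene's strand. Capitals mark the GC box GGGCGG or its reverse complement CCGCCC, the letters bound by Sp-family factors. They lie at chr2:26503823-26504072 (minus strand) for Notch1, chr3:98013288-98013537 (plus strand) for Notch2 and chr17:32166891-32167140 (minus strand) for Notch3. The Notch1 window lies inside the longer span that GENCODE gives the gene.
Notch1: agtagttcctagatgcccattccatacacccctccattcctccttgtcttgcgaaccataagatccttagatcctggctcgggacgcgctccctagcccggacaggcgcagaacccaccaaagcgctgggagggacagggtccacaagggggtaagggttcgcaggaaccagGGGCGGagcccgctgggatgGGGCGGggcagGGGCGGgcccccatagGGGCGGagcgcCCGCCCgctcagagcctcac
Notch2: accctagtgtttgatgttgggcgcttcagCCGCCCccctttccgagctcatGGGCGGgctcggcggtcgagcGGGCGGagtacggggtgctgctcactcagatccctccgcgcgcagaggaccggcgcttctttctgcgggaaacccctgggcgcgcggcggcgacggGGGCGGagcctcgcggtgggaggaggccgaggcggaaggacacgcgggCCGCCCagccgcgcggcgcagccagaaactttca
Notch3: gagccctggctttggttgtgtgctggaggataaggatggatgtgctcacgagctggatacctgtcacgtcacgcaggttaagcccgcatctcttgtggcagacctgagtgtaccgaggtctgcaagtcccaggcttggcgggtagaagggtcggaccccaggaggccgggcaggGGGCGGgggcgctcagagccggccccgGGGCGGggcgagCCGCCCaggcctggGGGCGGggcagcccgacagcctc
All 3 held the GC box several times, 5 matches in Notch1, 5 in Notch2 and 4 in Notch3, so these letters did not separate the receptor genes that were lower in mutants from the one that was higher. Promoters of 7 of the 10 genes were in the table used (not Hes1, Hey1 and Dtx4). Of these, 4 held the GC box (Jag2 as well, with 5 matches), against 32.7% of all 32851 promoters of the same length. The core letters TGGGAA read by RBPJ, on either strand, were in 0 of the 7 and in 21.6% of all promoters, and the E-box CACGTG was in 0 of the 7 and in 6.02% of all. A match describes the letters in this window only.

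Notch1 (ENSMUSG00000026923, chromosome 2, 26457903 to 26516663, minus strand, GRCm38) was the most abundant receptor gene in WT. Its level was 1210, 997 and 1220 CPM in the 3 WT samples, 833, 712, 881 and 804 CPM in PIK3CA mutant, 748, 666, 723 and 361 CPM in HER2 mutant and 713, 453, 807, 828 and 925 CPM in double mutant samples. Every mutant sample was below every WT sample. Notch1 fell in HER2 mutant organoids, with a log2 difference from WT of -0.87 (SE 0.24, adjusted p = 0.0328, 0.547-fold). The differences of -0.50 (SE 0.24, adjusted p = 0.312) in PIK3CA mutant and -0.62 (SE 0.23, adjusted p = 0.0952) in double mutant organoids did not pass the test, although the first passed in a fit of PIK3CA mutant and WT samples alone (adjusted p = 0.0181). The HER2 mutant call was lost without WT sample 1 (-0.82, adjusted p = 0.11), without WT sample 3 (-0.82, adjusted p = 0.127) and without HER2 mutant sample 4, the lowest at 361 CPM (-0.68, adjusted p = 0.0503). It was also lost in a fit of HER2 mutant and WT samples alone (adjusted p = 0.13). Exons of Notch1 share 1482 bases with genes on the opposite strand, and the strandedness of the counts was not given, so these reads cannot be assigned.

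Notch2 (ENSMUSG00000027878, chromosome 3, 98013527 to 98150361, plus strand) showed the same order of genotypes. It was at 489, 416 and 520 CPM in WT, 318, 309, 375 and 349 CPM in PIK3CA mutant, 156, 336, 336 and 230 CPM in HER2 mutant and 245, 264, 320, 298 and 310 CPM in double mutant samples. No mutant sample reached the lowest WT sample. Notch2 fell in HER2 mutant organoids, with a log2 difference of -0.84 (SE 0.21, adjusted p = 0.0198, 0.557-fold), and in double mutant organoids, with one of -0.725 (SE 0.20, adjusted p = 0.0266, 0.605-fold). In PIK3CA mutant organoids the difference was -0.49 (SE 0.21, adjusted p = 0.239), which passed in a fit of those 2 genotypes alone (adjusted p = 0.0155). The HER2 mutant call was lost without WT sample 1 (adjusted p = 0.0683), without WT sample 3 (adjusted p = 0.0987) and in a fit of the 2 genotypes alone (adjusted p = 0.133). In the double mutant it was lost without WT sample 1 (adjusted p = 0.0938), WT sample 3 (0.132), double mutant sample 1 (0.0508) or double mutant sample 2 (0.0562). Exons of Notch2 share 541 bases with Gm42820 on the same strand, and reads from these bases cannot be assigned.

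WT organoids also had the highest median sums of immune, fibroblast and endothelial markers. Against WT, 6 of 10 immune, 1 of 10 fibroblast and 2 of 7 tested endothelial markers were lower in HER2 mutant organoids, and 9 of 10, 7 of 10 and 4 of 7 in double mutant organoids. Of all genes, 5.63% and 6.72% were lower there. In PIK3CA mutant organoids, where Notch1 and Notch2 passed only in the fit of 2 genotypes, 9 of 10 immune, 0 of 10 fibroblast and 1 of 7 endothelial markers were lower. Of all genes, 4.52% passed in either direction in that comparison. The part of these cells in the Notch1 and Notch2 differences was not tested.

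Notch3 (ENSMUSG00000038146, chromosome 17, 32120820 to 32166852, minus strand) moved the other way. Its level was 191, 213 and 145 CPM in WT, 457, 412, 512 and 449 CPM in PIK3CA mutant, 181, 235, 214 and 270 CPM in HER2 mutant and 276, 207, 307, 384 and 350 CPM in double mutant samples. The PIK3CA mutant samples were above all 12 others, and the double mutant samples overlapped both WT and HER2 mutant samples. Notch3 rose in PIK3CA mutant organoids by 1.32 on the log2 scale against WT (SE 0.205, adjusted p = 0.00157, 2.5-fold) and in double mutant organoids by 0.735 (SE 0.19, adjusted p = 0.0216, 1.66-fold). It was lower in HER2 mutant than in PIK3CA mutant organoids, with a log2 difference of -1.02 (SE 0.18, adjusted p = 0.00715). The HER2 mutant difference from WT was 0.30 (SE 0.20, adjusted p = 0.374), and the interaction was -0.88 (SE 0.26, adjusted p = 0.131). Both calls that involve PIK3CA mutant organoids held with any single sample left out, in 7 of 7 and 8 of 8 fits. The double mutant call was lost without WT sample 1 (adjusted p = 0.0692) or WT sample 3 (0.59, adjusted p = 0.147).

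The 7 pericyte markers other than Notch3 summed to 60.3 to 187 CPM in WT, 20.2 to 46.5 in PIK3CA mutant, 30.4 to 101 in HER2 mutant and 25.5 to 44.8 CPM in double mutant organoids. Against WT, 3 of 7 were lower in PIK3CA mutant, 2 in HER2 mutant and 6 in double mutant organoids, and 0 were higher. In these comparisons 4.52%, 10.4% and 11.8% of all genes passed in either direction. Members differed among themselves: Mcam was at 20.4 CPM in WT and 30.8 CPM in double mutant organoids on average, and Kcnj8 at 3.36 CPM in WT and 15.9 CPM in HER2 mutant organoids, where it ran from 2.12 to 42.3 CPM. Of the 7, Des alone was at 0 counts, in 2 HER2 mutant samples. Luminal markers summed to 2170 to 2510 CPM in WT, 3240 to 3830 in PIK3CA mutant, 2120 to 2920 in HER2 mutant and 2800 to 4800 CPM in double mutant organoids. Of these 10, 0 were higher and 1 lower in PIK3CA mutant organoids against WT, and 1 higher and 1 lower in double mutant organoids. The part of pericytes or luminal cells in the Notch3 differences was not tested. Exons of Notch3 share 488 bases with an antisense gene, with the same limit on strand as for Notch1.

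Notch4 (ENSMUSG00000015468, chromosome 17, 34564268 to 34588503, plus strand), best known in endothelium, was low throughout. It was at 5.23, 8.06 and 5.39 CPM in WT and between 3.62 and 8.11 CPM over all 16 samples, with every pair of genotypes overlapping. No comparison passed the test. The largest difference between genotypes was 0.62, between double and HER2 mutant organoids (SE 0.23, adjusted p = 0.167, 95% interval 0.127 to 1.12). The interaction was 0.77 (SE 0.35, adjusted p = 0.345). Of the 7 endothelial markers tested, 1 was lower than WT in PIK3CA mutant, 2 in HER2 mutant and 4 in double mutant organoids, and 0 were higher. Of all genes, 4.52%, 10.4% and 11.8% passed in either direction.

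As a share of the summed receptor level per kb, Notch1 made up 54.2% ± 2.42 in WT (SD, n = 3), Notch2 29.8% ± 1.71, Notch3 15.5% ± 3.81 and Notch4 0.531% ± 0.178. In PIK3CA mutant organoids Notch1 and Notch3 were level on this scale, at 39% ± 0.877 and 38.9% ± 0.432 (SD, n = 4). In CPM, not scaled by length, they were at 807 and 457 on average. The lengths used, 14232 bases for Notch1 and 8089 for Notch3, join all annotated exons of a gene. Shares, ratios and sums per kb depend on them. The ratio of Notch3 to Notch1 per kb was 0.21 to 0.376 in WT and 0.965 to 1.02 in PIK3CA mutant samples, and 0.665 to 0.817 in double mutant samples. HER2 mutant samples spread from 0.426 to 1.31, the highest being sample 4, in which Notch1 was lowest. The summed receptor level was 148 ± 10.2 CPM per kb in WT and 145 ± 12.7 in PIK3CA mutant organoids, so the total differed by less than its spread while Notch3 took a larger share of it. The sum was 96.6 ± 13.7 CPM per kb in HER2 mutant (n = 4) and 118 ± 22.7 CPM per kb in double mutant organoids (n = 5).

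**Figure D2:**
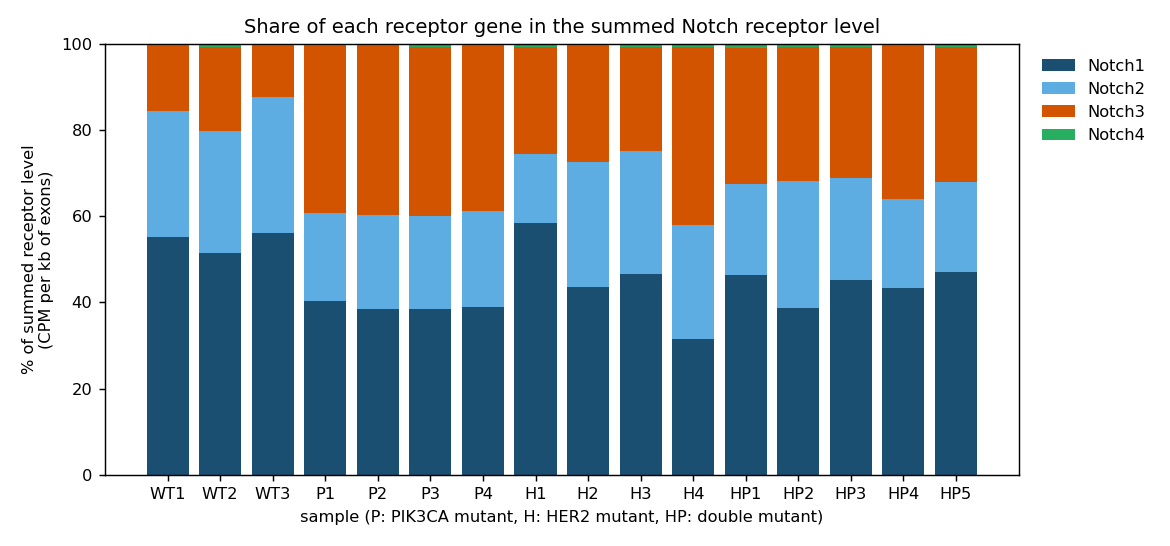
Share of each receptor gene (colours) in the summed receptor level per kb of exon (y axis, %) in every sample (x axis; P, PIK3CA mutant; H, HER2 mutant; HP, double mutant). Notch3 takes 11.8 to 19.4% in WT and 38.3 to 39.3% in PIK3CA mutant samples.

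The ligand genes did not pass the test in any comparison, and Dll1 came nearest. Dll1 (ENSMUSG00000014773, chromosome 17, 15367354 to 15376872, minus strand), a Delta-like ligand, was at 134, 128 and 132 CPM in WT, 251, 232, 365 and 228 CPM in PIK3CA mutant, 134, 239, 150 and 283 CPM in HER2 mutant and 316, 139, 162, 280 and 256 CPM in double mutant samples. The WT samples were close together, and all PIK3CA mutant and double mutant samples were above them. The log2 difference from WT was 1.03 in PIK3CA mutant (SE 0.30, adjusted p = 0.0677, 2.05-fold), 0.81 in double mutant (SE 0.29, adjusted p = 0.0825) and 0.62 in HER2 mutant organoids (SE 0.30, adjusted p = 0.207). The PIK3CA mutant difference passed by DESeq2 (adjusted p = 0.0221), with no filter on low counts (0.0495) and in a fit of those 2 genotypes alone (0.00475). The double mutant difference passed by DESeq2 (adjusted p = 0.0483) and without double mutant sample 2 (0.0425). Dll1 exons share 867 bases with a gene on the opposite strand.

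Jag1 (ENSMUSG00000027276, chromosome 2, 137081456 to 137116644, minus strand), a Jagged ligand, varied widely within genotypes. It was at 57, 98.1 and 38.3 CPM in WT, 93, 107, 47.1 and 120 CPM in PIK3CA mutant, 116, 67.6, 94.3 and 40 CPM in HER2 mutant and 70.8, 125, 238, 140 and 145 CPM in double mutant samples, and every pair of genotypes overlapped. The difference with the smallest adjusted p was that of the double mutant from WT, 1.16 (SE 0.42, adjusted p = 0.0891), which passed by DESeq2 (adjusted p = 0.0421) and without double mutant sample 1 (adjusted p = 0.0466). Jag2 (ENSMUSG00000002799, chromosome 12, 112907819 to 112929776, minus strand), the other Jagged ligand, was at 39, 74.6 and 20.7 CPM in WT, 90.2, 87.9, 45.5 and 87.9 CPM in PIK3CA mutant, 74.3, 48.2, 46.5 and 11 CPM in HER2 mutant and 53, 61.7, 138, 78.7 and 77.7 CPM in double mutant samples. Its differences from WT were 0.80 (SE 0.52), 0.01 (SE 0.51) and 0.87 (SE 0.50) in PIK3CA mutant, HER2 mutant and double mutant organoids, with adjusted p of 0.486, 0.994 and 0.285.

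Within each mutant genotype the Jagged and Delta-like genes were at their extremes in the same sample. PIK3CA mutant sample 3, HER2 mutant sample 4 and double mutant sample 1 each had the lowest Jag1, the lowest Jag2 and the highest Dll1 of their genotype. The same 3 samples had the highest Hey1 of their genotype, at 518, 250 and 517 CPM. In WT, sample 3 had the lowest Jag1 and Jag2, and Dll1 was about the same in all 3 samples. These positions were noticed in the data and carry no test. Basal markers summed to 526 CPM in PIK3CA mutant sample 3 against 1130 to 1400 CPM in the other 3, to 391 CPM in HER2 mutant sample 4 against 266, 271 and 975 CPM, and to 974 CPM in double mutant sample 1 against 566 to 1040 CPM. The part of basal cells in these sample differences was not tested.

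**Figure D3:**
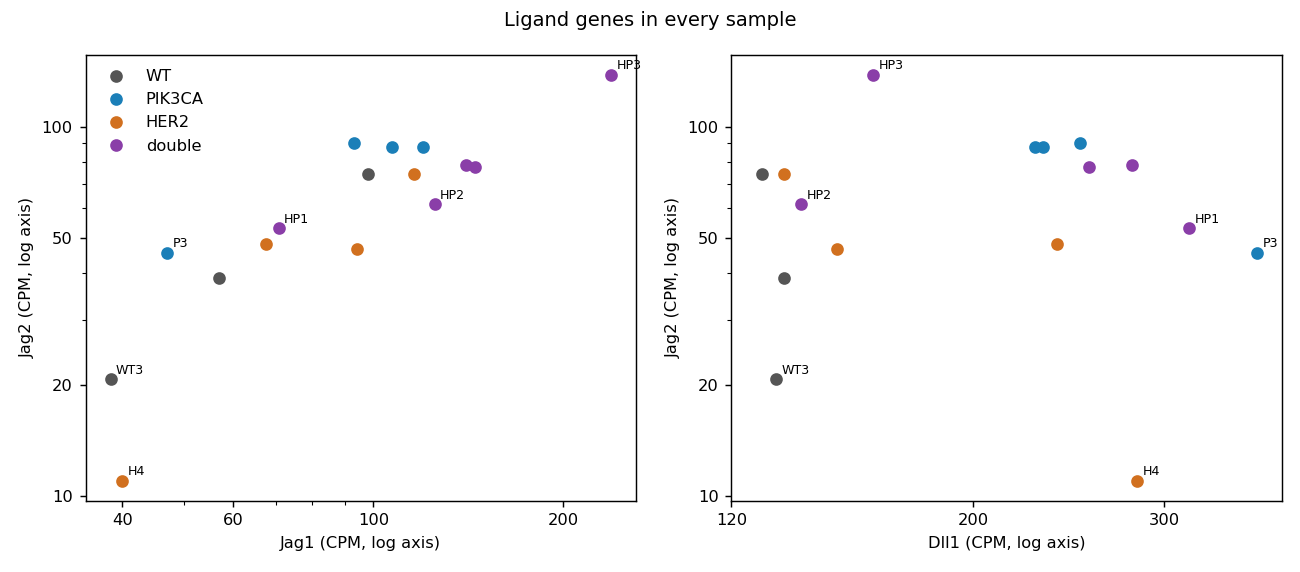
Jag2 (y axis, CPM, log axis) against Jag1 (left, CPM, log axis) and against Dll1 (right, CPM, log axis) in the 16 samples, coloured by genotype; labels give the samples named in the text (P, PIK3CA mutant; H, HER2 mutant; HP, double mutant). Samples P3, H4 and HP1 have the lowest Jag1 and Jag2 and the highest Dll1 of their genotypes.

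Summed per kb, the 3 ligand genes were at 48.6 ± 8.55 CPM per kb in WT (SD, n = 3), 90.6 ± 6.98 in PIK3CA mutant (n = 4), 67.9 ± 8.83 in HER2 mutant (n = 4) and 91.1 ± 15.8 CPM per kb in double mutant organoids (n = 5). All samples of each mutant genotype were above the WT range of 40.9 to 57.8 CPM per kb, the lowest at 58.5 CPM per kb; the sum was not tested. The ratio of Jag1 to Jag2 per kb was 1.57 to 2.21 in WT and 1.23 to 1.63 in PIK3CA mutant samples, which overlapped.

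Hes1 (ENSMUSG00000022528, chromosome 16, 30064384 to 30067796, plus strand), a target gene that encodes a repressor, was at 115, 130 and 87.4 CPM in WT, 165, 163, 186 and 185 CPM in PIK3CA mutant, 98, 124, 116 and 101 CPM in HER2 mutant and 113, 223, 187, 136 and 130 CPM in double mutant samples. PIK3CA mutant samples were above all WT and all HER2 mutant samples, but no difference passed the test in the fit of all 16 samples. The difference from WT was 0.66 in PIK3CA mutant (SE 0.21, adjusted p = 0.0933), 0.51 in double mutant (SE 0.20, adjusted p = 0.11) and -0.01 in HER2 mutant organoids (SE 0.21, adjusted p = 0.978), the last of which changed sign under several settings. The PIK3CA mutant difference passed in a fit of those 2 genotypes alone (adjusted p = 0.0118). HER2 mutant organoids differed from PIK3CA mutant organoids by -0.67 (SE 0.19, adjusted p = 0.0572), which passed by DESeq2 (adjusted p = 0.0293) and in a fit of the 2 genotypes alone (0.027). The double mutant difference from WT passed without double mutant sample 1 (0.61, adjusted p = 0.0485).

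Hey1 (ENSMUSG00000040289, chromosome 3, 8663359 to 8667256, minus strand), the other target gene, separated the 2 single mutants. It was at 312, 245 and 217 CPM in WT, 498, 477, 518 and 369 CPM in PIK3CA mutant, 118, 96.5, 110 and 250 CPM in HER2 mutant and 517, 166, 197, 350 and 325 CPM in double mutant samples. HER2 mutant samples were all below PIK3CA mutant samples, and 3 of the 4 were below every other sample of the series. Hey1 was lower in HER2 mutant than in PIK3CA mutant organoids (log2 difference -1.7, SE 0.34, adjusted p = 0.0123, 0.308-fold), a call kept in 8 of 8 fits that left out 1 sample. Against WT it differed by 0.85 in PIK3CA mutant (SE 0.37, adjusted p = 0.241), -0.84 in HER2 mutant (SE 0.36, adjusted p = 0.15) and 0.27 in double mutant organoids (SE 0.35, adjusted p = 0.664). The PIK3CA mutant difference passed in a fit of those 2 genotypes alone (adjusted p = 0.00857). Without HER2 mutant sample 4, the 1 high sample, the HER2 mutant difference from WT was -1.25 and passed (adjusted p = 0.0255). The double mutant was above the HER2 mutant by 1.12 (SE 0.325, adjusted p = 0.0744), which passed by DESeq2 (adjusted p = 0.019), without HER2 mutant sample 4 (1.52, adjusted p = 0.0177) and without double mutant sample 2 (1.27, adjusted p = 0.0465).

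Hes1 and Hey1 did not share one pattern among the double mutant samples. Samples 2 and 3 had the 2 lowest Hey1 levels (166 and 197 CPM), the 2 lowest Dll1 levels (139 and 162 CPM) and the 2 highest Hes1 levels (223 and 187 CPM). The ratio of Hey1 to Hes1 per kb ran from 0.464 to 2.86 in double mutant samples, from 1.24 to 1.89 in PIK3CA mutant samples and from 0.485 to 1.55 in HER2 mutant samples. Of 10 basal markers, 5 were lower in HER2 mutant than in PIK3CA mutant organoids, with summed levels of 266 to 975 and 526 to 1400 CPM. So were 2 of 10 luminal markers, where 2.2% of all genes were lower. The sample with the highest Hey1 had a basal sum of 526 CPM in PIK3CA mutant organoids, the lowest of its genotype. In HER2 mutant organoids that sum was 391 CPM, inside the range of 266 to 975 CPM. In double mutant organoids it was 974 CPM, inside a range of 566 to 1040 CPM. The part of basal and luminal cells in the Hes1 and Hey1 differences was not tested.

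Dtx4 (ENSMUSG00000039982, chromosome 19, 12466338 to 12501454, minus strand) was above WT in each single mutant and near the WT level in the double mutant. It was at 7.48, 11.2 and 13.2 CPM in WT, 19.9, 21.5, 25.7 and 24.7 CPM in PIK3CA mutant, 25.9, 31.4, 20.6 and 30.2 CPM in HER2 mutant and 12.2, 16.4, 8.42, 11.1 and 9.39 CPM in double mutant samples. All single-mutant samples were above all WT and all double mutant samples, and WT and double mutant samples overlapped. Dtx4 rose against WT by 1.11 in PIK3CA mutant (SE 0.24, adjusted p = 0.0138, 2.16-fold) and by 1.35 in HER2 mutant organoids (SE 0.24, adjusted p = 0.00364, 2.55-fold). The double mutant differed from WT by 0.115 (SE 0.23, adjusted p = 0.792, 95% interval -0.365 to 0.595). It was below both single mutants, with a log2 difference of -1.23 from the HER2 mutant (SE 0.21, adjusted p = 0.00713) and of -0.999 from the PIK3CA mutant (SE 0.21, adjusted p = 0.0415). The interaction was -2.35 (SE 0.32, adjusted p = 0.00521, 95% interval -3.03 to -1.67), so the double mutant level was 0.196 of the level that the 2 single-mutant differences would give when added on the log2 scale.

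The interaction of Dtx4 passed in 16 of 16 fits that left out 1 sample and in 6 of 6 other settings. It uses the WT samples, the only ones from normal breast. The PIK3CA mutant call was lost without WT sample 1, the lowest of its group (0.92, adjusted p = 0.0799). The difference between double and HER2 mutant organoids held in 9 of 9 fits that left out 1 sample and was lost in a fit of those 2 genotypes alone (adjusted p = 0.0623). That between double and PIK3CA mutant organoids held in 1 of 9: it was kept without double mutant sample 2, and leaving out any other of the 9 samples gave an adjusted p of 0.0666 to 0.174. Of 10 immune markers, 6 to 9 were lower than in WT in each of the 3 mutant genotypes, where 4.52% to 11.8% of all genes passed. The part of other cell types in the Dtx4 pattern was not tested.

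**Figure D4:**
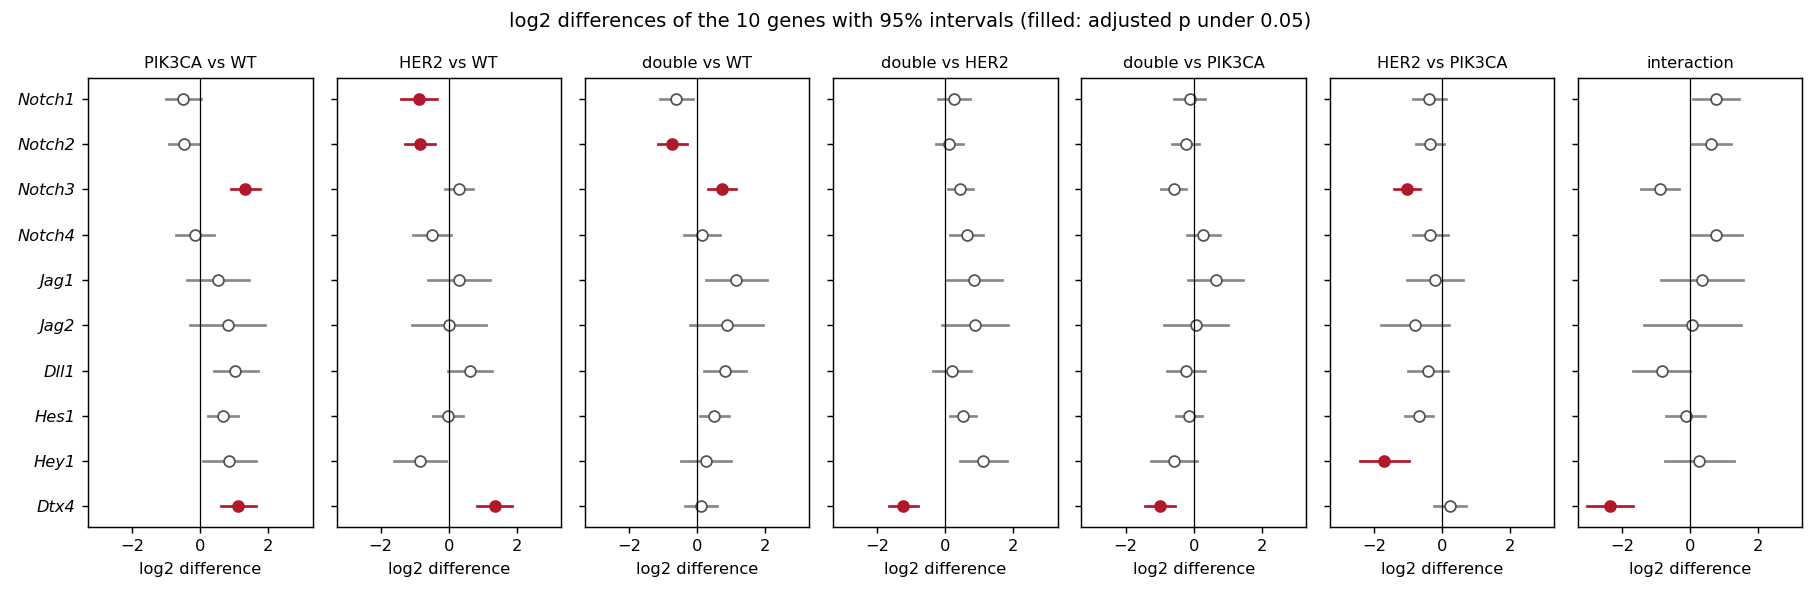
log2 difference of each gene (x axis, with its 95% interval) in the 6 comparisons of genotypes and in the interaction (panels); filled red points passed an adjusted p of 0.05. Notch3 lies at 1.32 for PIK3CA mutant against WT, and Dtx4 at -2.35 in the interaction.

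Set against all 24252 genes tested, the number of the 10 genes that passed was as follows. In PIK3CA mutant against WT, 2 passed, both higher, where 4.52% of all genes passed and 1.49% were higher. The median log2 difference of the 10 was 0.73, against -0.03 over all genes. Samples of these 2 genotypes did not overlap for 7 of the 10 genes, where 29.5% of all genes were separated so. In HER2 mutant against WT, 3 passed, 1 higher and 2 lower, where 10.4% of all genes passed, 4.75% higher and 5.63% lower. Samples were separated for 3 of the 10 genes, where 22.2% of all were. In double mutant against WT, 2 passed, 1 higher and 1 lower, where 11.8% of all genes passed, 5.03% higher and 6.72% lower. Samples were separated for 3 of the 10, where 23% of all genes were, so both shares are near the background.

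Between mutants fewer genes passed in all. In HER2 against PIK3CA mutant organoids 2 of the 10 genes passed, both lower, where 4.41% of all genes passed and 2.2% were lower; 3 were separated, where 12.5% of all were. In double against HER2 mutant organoids 1 passed, lower, where 2.5% of all genes passed and 1.47% were lower; 1 was separated, where 4.59% of all were. In double against PIK3CA mutant organoids 1 passed, lower, where 0.672% of all genes passed and 0.363% were lower; 2 were separated, where 7.92% of all were. In the interaction 1 passed, lower, where 1.06% of all genes passed and 0.544% were lower. The 3 comparisons with WT share the WT samples, and those between mutants share the mutant samples.

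Other genes of the pathway were read from 6 lists, 44 genes of which 42 were tested. Against WT, 3 passed in PIK3CA mutant (2 higher and 1 lower), 5 in HER2 mutant (2 higher and 3 lower) and 5 in double mutant organoids (2 higher and 3 lower), where 4.52%, 10.4% and 11.8% of all genes passed. The counts in HER2 mutant and double mutant organoids are near those shares. Between mutants, 3 passed in HER2 against PIK3CA (all lower) and 1 in double against HER2 mutant organoids (higher), where 4.41% and 2.5% of all genes passed. By edgeR 0 passed in double against PIK3CA mutant organoids, where 8 had an unadjusted p under 0.05 and 1 passed by DESeq2. In the interaction 2 passed. By list, 1, 2 and 1 of 7 regulators were higher than WT in PIK3CA mutant, HER2 mutant and double mutant organoids and 0 lower. Of 4 targets tested, 1 was lower in HER2 mutant and 1 higher in double mutant organoids, and in PIK3CA mutant organoids 0 passed by edgeR or DESeq2, with 0 at an unadjusted p under 0.05.

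Dtx1, the Deltex gene with which Dtx4 shares its family, was the only one of these to differ from WT in all 3 mutant genotypes. It was at 3.57, 1.7 and 1.82 CPM in WT, 11, 6.47, 10.8 and 7.88 CPM in PIK3CA mutant, 3.89, 5.2, 5.81 and 5.18 CPM in HER2 mutant and 7, 7.13, 5.01, 6.06 and 5.89 CPM in double mutant samples, and no mutant sample was as low as any WT sample. Dtx1 rose by 1.93 (SE 0.29, adjusted p = 0.00142), 1.09 (SE 0.28, adjusted p = 0.0244) and 1.4 (SE 0.28, adjusted p = 0.00394) on the log2 scale in PIK3CA mutant, HER2 mutant and double mutant organoids, calls kept in 7 of 7, 4 of 7 and 8 of 8 fits that left out 1 sample. Its interaction was -1.62 (SE 0.37, adjusted p = 0.0478), with a call kept in 3 of 16. Unlike Dtx4, Dtx1 therefore stayed above WT in the double mutant. Dtx2 and Dtx3, the other Deltex genes listed, passed in no comparison.

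Hey2, a relative of Hey1 among the targets, was low in HER2 mutant organoids. It was at 11, 11 and 5.71 CPM in WT, 15.7, 8.99, 6.95 and 7.98 CPM in PIK3CA mutant, 0.113, 0.347, 0.668 and 0.532 CPM in HER2 mutant and 14.8, 2.2, 4.77, 4.36 and 6.01 CPM in double mutant samples. The HER2 mutant samples, with 6 to 30 counts each, were below all 12 others. Hey2 was lower in HER2 mutant organoids, with a log2 difference of -4.48 from WT (SE 0.62, adjusted p = 0.000794) and of -4.58 from PIK3CA mutant organoids (SE 0.61, adjusted p = 0.00109), and was higher in double than in HER2 mutant organoids by 3.96 (SE 0.585, adjusted p = 0.00379). The last call was kept in 9 of 9 fits that left out 1 sample and in 6 of 7 other settings. Its interaction was 3.85 (SE 0.775, adjusted p = 0.0272), kept in 11 of 16. Of 10 basal markers, 4 were lower and 0 higher in HER2 mutant organoids against WT, where 5.63% of all genes were lower. The part of basal cells in the Hey2 difference was not tested. Of the other targets, Nrarp was lower in HER2 than in PIK3CA mutant organoids (-1.38, SE 0.305, adjusted p = 0.0191), Hes7 rose in double mutant organoids (1.86, SE 0.57, adjusted p = 0.0442; kept in 2 of 8 fits that left out 1 sample), Heyl passed nowhere, and Hes5 had at most 3 counts in any sample.

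**Figure D5:**
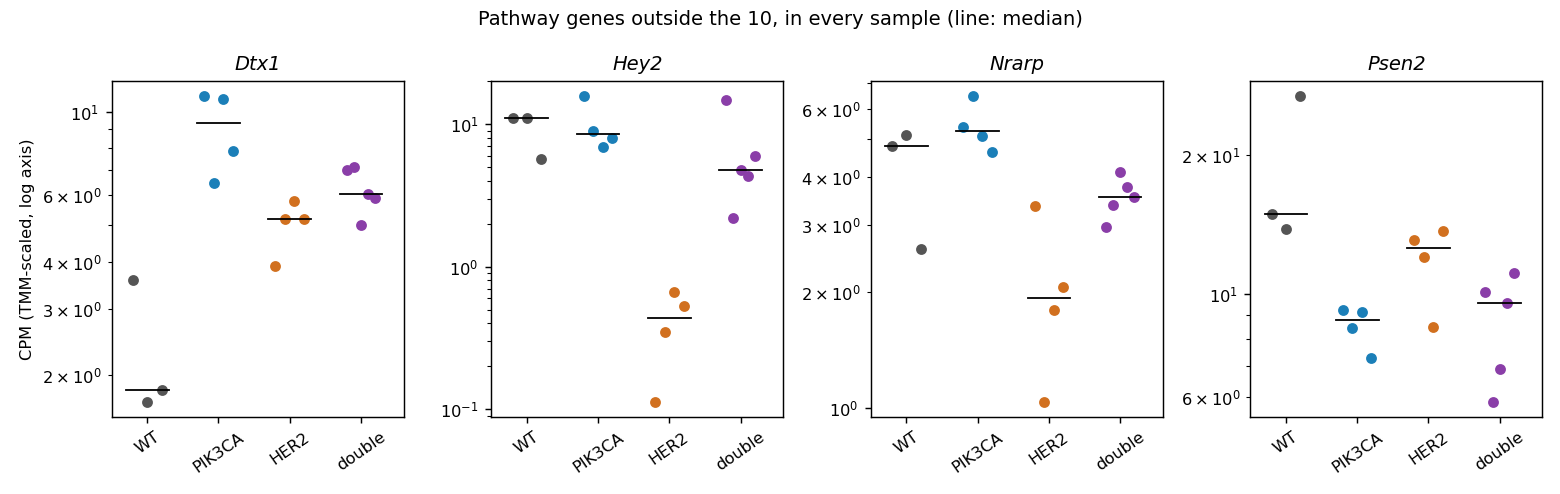
Levels of Dtx1, Hey2, Nrarp and Psen2 (y axis, CPM, log axis) in every sample by genotype (x axis); points are samples and lines medians. Hey2 is below 1 CPM in the 4 HER2 mutant samples only.

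Of 14 genes that process the receptor and its ligands, 1 was lower in PIK3CA mutant, 2 in HER2 mutant and 2 in double mutant organoids against WT and 0 were higher, where 4.52%, 10.4% and 11.8% of all genes passed. Psen2, a catalytic subunit of the gamma-secretase that releases the intracellular part of Notch, was at 14.9, 13.8 and 26.7 CPM in WT, 9.25, 8.45, 9.14 and 7.27 CPM in PIK3CA mutant, 13.1, 12, 8.48 and 13.7 CPM in HER2 mutant and 10.1, 5.87, 6.89, 9.57 and 11.1 CPM in double mutant samples. The log2 difference from WT was -1.12 in PIK3CA mutant (SE 0.26, adjusted p = 0.0214) and -1.09 in double mutant organoids (SE 0.25, adjusted p = 0.00929), the first kept in 3 of 7 and the second in 7 of 8 fits that left out 1 sample. Aph1c, another gamma-secretase subunit, was lower in HER2 mutant organoids (log2 difference -0.795, SE 0.24, adjusted p = 0.0431; kept in 3 of 7). So was Neurl1a, a ubiquitin ligase of Notch ligands (log2 difference -1.39, SE 0.41, adjusted p = 0.0411, kept in 4 of 7). Neurl1a was at 2.87, 11.2 and 3.12 CPM in WT and 2.83, 2.76, 1.67 and 1.47 CPM in HER2 mutant samples. WT sample 2 was thus far above the other WT samples.

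In the nuclear complex, 1 of 9 genes was higher in PIK3CA mutant (Maml3, 0.81, SE 0.22, adjusted p = 0.0419; kept in 1 of 7 fits that left out 1 sample) and 1 lower in double mutant organoids (Ep300, -0.48, SE 0.12, adjusted p = 0.0165; kept in 6 of 8), and 0 passed in HER2 mutant organoids by edgeR or DESeq2, where 2 had an unadjusted p under 0.05. Maml3 encodes a Mastermind coactivator and Ep300 a histone acetyltransferase that it recruits. Rbpj, the DNA-binding partner, differed from WT by -0.02, 0.07 and 0.22 in PIK3CA mutant, HER2 mutant and double mutant organoids, with adjusted p of 0.984, 0.917 and 0.689. Itch, a ubiquitin ligase among the 7 regulators, rose in HER2 mutant organoids by 0.39 (SE 0.12, adjusted p = 0.0469; kept in 1 of 7). None of the 5 glycosylation genes and none of the 3 other ligands tested passed in any of the 7 comparisons by edgeR or DESeq2, and 0 of them had an unadjusted p under 0.05.

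The genes most like each receptor over the 16 samples were found by the root mean square difference of log2 CPM, each gene centred on its mean, among 11744 genes. Notch1 was nearest to Emc1 (0.117), Fancg (0.163) and Mgat5 (0.175), against a standard deviation of 0.447 of Notch1 itself. Emc1 was at 118 CPM in WT, 81.8 in PIK3CA mutant, 70.9 in HER2 mutant and 76.9 CPM in double mutant organoids on average. Notch2, with a standard deviation of 0.418, was nearest to Synj1 (0.151), Fmnl3 (0.166) and Elf1 (0.173). Notch3, with one of 0.549, was nearest to Arrb1 (0.251), Lratd2 (0.277) and Socs5 (0.294). Arrb1 was at 150, 360, 204 and 216 CPM in the same order of genotypes. Notch4, with a standard deviation of 0.382, was nearest to Paxx (0.258), Ikbip (0.266) and Gorasp1 (0.277). None of the 10 Notch genes was among the nearest 3 of any receptor.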

How the data were processed

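RNA of 16 mouse mammary organoid samples was sequenced from SMARTer libraries, per the labels' protocols. The submitters' processing notes name bcl2fastq 2.20, STAR 2.0.4b, Subread featureCounts 1.4.5, DESeq2 1.33.5 and mm10. Strandedness and annotation are not given in the sources used here. The authors deposited raw read counts per Ensembl gene, and a normalized signal table, in which each value was the deposited count over a DESeq2 size factor (largest relative difference 5.49e-10). Of 55774 entries, 287 repeated an identifier and were dropped.

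Counts were tested with edgeR 4.0.16 in R 4.3.3: filterByExpr (24252 genes), TMM factors and the two-sided quasi-likelihood test in a single model of the 16 samples with genotype as its factor. P-values were Benjamini-Hochberg adjusted over all genes in each of 7 comparisons, with calls at 0.05. SE is the absolute log2 difference over the square root of F. CPM per kb used the joined length of all exons of a gene in GENCODE M21 (GRCm38), which can exceed that of the transcripts present. Likeness used log2 CPM with a prior count of 2. Alternatives were DESeq2 1.42.0, 2 other scalings, no filter, a replicate block, fits of 2 genotypes, limma 3.58.1 on log2(normalized value + 1) and leaving out each sample. The fit was tested on simulated data.

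The 10 genes and all lists (6 of the pathway, 6 of cell markers) were chosen with earlier results of these data known. All 10 are named, as are listed genes that passed against WT with a mean of at least 1 CPM in some genotype, except 1 that is not reported here; Rbpj, Nrarp, Hes5, Heyl, Dtx2, Dtx3, Mcam and Kcnj8 were added after their values were seen.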

Additional observations from a re-analysis of the deposited data

Results flagged for a closer look

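In 30 groups of 4 or 5 samples (10 genes in 3 mutant genotypes), 3 held a sample far from the others of its genotype by Dixon's criterion, which chance alone meets in about 1 of 20 groups. Jag2 was at 45.5 CPM in PIK3CA mutant sample 3, with the other 3 at 87.9 to 90.2 CPM. Dll1 was at 365 CPM in the same sample, with the others at 228 to 251 CPM. Hey1 was at 250 CPM in HER2 mutant sample 4, with the others at 96.5 to 118 CPM. Without that sample the HER2 mutant difference of Hey1 from WT moved from -0.84 to -1.25 on the log2 scale.

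The Dtx4 difference between organoids with and without the PIK3CA mutation was not the same with and without the HER2 mutation. The interaction was -2.35 on the log2 scale (edgeR, adjusted p = 0.00521). It uses WT, so genotype and tissue source cannot be told apart in it. Dtx4 was at 19.9 to 31.4 CPM in the single-mutant samples, at 7.48 to 13.2 CPM in WT and at 8.42 to 16.4 CPM in double mutant samples.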

How the results depend on the processing

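Of the 12 calls among the 10 Notch genes, all 12 were kept by DESeq2 (with 5 more gained), median-of-ratios factors, upper-quartile factors, no filter on low counts and limma on the normalized values. In fits of only 2 genotypes, where the 11 calls outside the interaction could be fitted, 8 were kept, 3 lost and 6 gained. The number of the 10 genes called moved as follows. In PIK3CA mutant against WT it was 2, 7 in the fit of those genotypes alone and 1 to 2 with 1 sample left out. In HER2 mutant against WT it was 3, 1 in the fit of those genotypes alone and 1 to 3 with 1 sample left out. In double mutant against WT it was 2, 4 by DESeq2, and 0 to 3 with 1 sample left out. In double against HER2 mutant it was 1, 2 by DESeq2, 0 in the fit of those genotypes alone, 1 to 2 with 1 sample left out, and 2 with double mutant samples 2 and 3 both left out, a setting chosen after seeing the data. In double against PIK3CA mutant it was 1, and 0 to 1 with 1 sample left out. The samples that ended calls against WT were most often WT samples 1 and 3, without which 5 and 4 of the 8 calls that use WT samples were lost. The cause of these moves was not tested.

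The correlations do not settle whether the replicate numbers of the titles pair the samples, since few samples share a number. Same-numbered samples correlated at 0.0711 to 0.273 between double and HER2 mutant, with a mean of 0.157 against -0.0407 for other pairs. Between PIK3CA mutant and WT the means were 0.0425 and -0.0142, and in the other comparisons the same-number mean was negative. In no comparison were all same-number correlations over 0.1. With a replicate block 9 of the 12 calls were kept. It left 1 call in double mutant against WT, 0 in double against PIK3CA mutant, and gave adjusted p of 0.0544 for Notch1 in HER2 mutant, 0.0929 for Notch3 in double mutant and 0.153 for Dtx4. Of 4 samples, 2 correlated best with their own number between double and HER2 mutant, 1 between HER2 and PIK3CA mutant and 0 between double and PIK3CA mutant.

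No called value changed sign. Uncalled values that did were as follows. Hes1 in HER2 mutant against WT (-0.01) was 0.0383 with upper-quartile factors, 0.0107 with the replicate block, 0.00932 in the fit of those genotypes alone, 0.0095 by limma and -0.159 to 0.119 with 1 sample left out. Jag2 in the same comparison (0.01) was -0.0817 by limma and -0.345 to 0.59 with 1 sample left out. With 1 sample left out, Notch4 in PIK3CA mutant against WT ran from -0.333 to 0.0831, Dtx4 in double mutant against WT from -0.0837 to 0.298, Notch2 in double against HER2 mutant from -0.0658 to 0.255, Jag1 in HER2 against PIK3CA mutant from -0.446 to 0.0164, and in double against PIK3CA mutant Notch1 from -0.205 to 0.0192 and Jag2 from -0.2 to 0.192. In the interaction, Jag1 ran from -0.0927 to 0.61, Jag2 from -0.522 to 0.415, Hes1 from -0.293 to 0.00927 and Hey1 from -0.000159 to 0.671. With double mutant samples 2 and 3 both left out, Notch1 (0.0253), Jag2 (-0.158) and Dll1 (0.0785) in double against PIK3CA mutant and Jag2 in the interaction (-0.166) changed sign.

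Among all genes called, the share that was higher moved by over 10 points in 4 comparisons. In double against HER2 mutant it went from 41.1% to 30.2% with upper-quartile factors and 55.6% by limma. With the replicate block it went from 46% to 21.1% in double against PIK3CA mutant and from 48.6% to 28.6% in the interaction. In PIK3CA mutant against WT it went from 33% to 47% in the fit of those genotypes alone, which called 1942 genes higher and 2194 lower. The median of all genes moved by at most 0.0562 (log2) under another scaling. At the lowest depth 3 counts correspond to 0.0659 CPM, and the lowest value of any of the 10 genes was 3.62 CPM.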
